A study of Mus musculus with 4 samples.

Results

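The genes described here encode the machinery that starts transcription: the subunits of RNA polymerases I, II and III, the general transcription factors and the Mediator complex. Members were chosen by symbol alone, as protein-coding genes of the mm10 RefSeq gene table whose symbol starts with Polr1, Polr2, Polr3, Gtf2 or Gtf3, or with Taf or Med followed by a digit, together with Tbp and Tbpl1. This rule found 107 of 21887 protein-coding genes. No measured value entered it, although the members were chosen with earlier results of these data known. ATAC-seq, which marks accessible chromatin through insertions of the transposase Tn5, had been run on pachytene spermatocytes from mouse testis, cells in the stage of meiotic prophase when homologous chromosomes are paired along their length. The labels describe 2 libraries of the genotype Znhit1_KO and 2 of the genotype CTRL, all with the tag P35. They give no allele, Cre driver, strain or treatment, so what else the controls carry is unknown here. The comparison asks how loss of ZNHIT1, a protein of the SRCAP remodeller that exchanges H2A for H2A.Z, bears on accessible sites, and 2 peak lists were analysed, 1 per genotype.

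Each list gives the start and end of its peaks and nothing about their height. A member counted as having a peak when an interval of the list came within 1 kb of either annotated gene end, and it then fell into 1 of 4 classes: both lists, knockout-alone, control-alone, or neither. With 1 list per genotype there is no replicate check and no p-value, and the Wilson 95% intervals given below cover counting error only. The lists held 21004 (knockout) and 15376 (control) different intervals with median widths of 352 and 427 bp, and the exact read depth they rest on is unknown. Whether a list came from 1 library or from pooled replicates is not stated in the sources used here. A knockout-alone gene therefore stands beside a longer knockout list, and the part of list length in any difference was not tested. Znhit1 itself had a peak at its ends in each list (692 bp in the knockout, 633 bp in the control), which does not check the genotype because the deleted part of the gene is unknown. Of 11 marker genes of pachytene spermatocytes, 9 had a peak in both lists, Spag6 in the knockout alone and Ccna1, the meiotic cyclin A gene, in neither. At Ldhc, counted in both lists, the widest peaks (168 bp knockout, 486 bp control) lay at different sites. Of 8 Sertoli cell markers 2 had a peak, of 10 markers of other somatic cells 1, of 6 spermatogonial markers 1 and of 6 spermatid markers none, each of them in 1 list alone. The somatic ones, Amhr2, Dhh and Acta2, were all in the knockout list, and the spermatogonial one, Dmrt1, was in the control list.

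RNA polymerase I makes ribosomal RNA, RNA polymerase II makes messenger RNA and RNA polymerase III makes transfer RNA and other small RNAs. At RNA polymerase II promoters TFIID, built from TBP and its associated factors (TAFs), binds first, TFIIA and TFIIB hold it there, the polymerase arrives with TFIIF, and TFIIE and TFIIH help to melt the DNA. Mediator passes signals from enhancer-bound factors to the polymerase. Male germ cells are known for making paralogues of several of these proteins, among them TBPL1 (also called TRF2), the TFIIA subunit GTF2A1L (ALF), TAF4B and TAF7L.

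The promoters of 7 members are shown because the results below turn on them: the TBP pair, with a peak in both lists, Polr2a with a knockout-alone peak, Polr2h and Gtf2b with control-alone peaks, and the TFIIA pair, of which one had peaks in both lists and the other depended on how the gene start was placed. Each is the RefSeq window (GRCm38.p6) from 250 bases before to 50 bases after the start, 5′ to 3′ on the gene's strand. Capitals mark exact matches, on either strand, to any of 9 short promoter motifs. The TATA box was searched as TATAAA, the GC box as GGGCGG and the CCAAT box as CCAAT. The core of ETS factor sites was searched as CCGGAAG, that of YY1 sites as AAGATGG, that of MYB sites as AACTGCC and that of E2F sites as GCGGGAA. The cyclic AMP response element was searched as TGACGTCA, and the NRF1 motif stands here by its name. GGGCGG and GCGGGAA can share bases.
Tbp (chr17:15499638-15499937, plus strand): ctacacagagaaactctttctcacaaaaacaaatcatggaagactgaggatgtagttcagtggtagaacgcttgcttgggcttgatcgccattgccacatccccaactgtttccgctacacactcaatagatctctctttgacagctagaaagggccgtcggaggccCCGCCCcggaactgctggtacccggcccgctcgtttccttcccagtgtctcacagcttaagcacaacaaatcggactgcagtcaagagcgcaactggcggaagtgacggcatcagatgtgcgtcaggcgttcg
Tbpl1 (chr10:22731398-22731697, minus strand): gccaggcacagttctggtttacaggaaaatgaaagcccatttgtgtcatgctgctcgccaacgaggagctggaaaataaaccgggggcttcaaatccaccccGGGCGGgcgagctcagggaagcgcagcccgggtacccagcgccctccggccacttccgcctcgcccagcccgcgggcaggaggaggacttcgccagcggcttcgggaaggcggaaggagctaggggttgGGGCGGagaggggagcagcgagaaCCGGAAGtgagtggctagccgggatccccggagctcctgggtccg
Polr2a (chr11:69758584-69758883, minus strand): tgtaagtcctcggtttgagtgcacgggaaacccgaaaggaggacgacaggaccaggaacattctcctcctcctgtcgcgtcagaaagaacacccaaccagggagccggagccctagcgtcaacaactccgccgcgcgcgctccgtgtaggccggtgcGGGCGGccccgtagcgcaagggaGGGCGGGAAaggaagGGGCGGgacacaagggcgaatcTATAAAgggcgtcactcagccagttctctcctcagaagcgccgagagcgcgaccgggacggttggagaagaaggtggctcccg
Polr2h (chr16:20717576-20717875, plus strand): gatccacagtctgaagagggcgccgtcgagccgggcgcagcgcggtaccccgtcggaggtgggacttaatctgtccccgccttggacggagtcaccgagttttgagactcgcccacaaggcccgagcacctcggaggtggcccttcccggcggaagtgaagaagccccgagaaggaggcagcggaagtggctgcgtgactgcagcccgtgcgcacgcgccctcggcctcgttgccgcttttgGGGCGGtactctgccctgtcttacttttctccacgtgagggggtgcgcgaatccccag
Gtf2b (chr3:142764997-142765296, plus strand): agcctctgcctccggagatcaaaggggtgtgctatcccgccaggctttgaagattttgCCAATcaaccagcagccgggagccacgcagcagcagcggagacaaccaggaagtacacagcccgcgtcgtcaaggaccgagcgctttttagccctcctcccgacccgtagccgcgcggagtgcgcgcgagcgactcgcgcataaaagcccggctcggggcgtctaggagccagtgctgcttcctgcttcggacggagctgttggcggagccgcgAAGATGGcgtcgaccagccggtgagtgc
Gtf2a1 (chr12:91590438-91590737, minus strand): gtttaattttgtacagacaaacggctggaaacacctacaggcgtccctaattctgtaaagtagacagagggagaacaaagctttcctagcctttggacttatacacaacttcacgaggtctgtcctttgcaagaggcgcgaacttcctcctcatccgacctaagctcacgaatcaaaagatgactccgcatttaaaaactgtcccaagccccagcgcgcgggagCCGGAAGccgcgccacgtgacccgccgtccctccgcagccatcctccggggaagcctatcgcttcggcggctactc
Gtf2a1l (chr17:88668410-88668709, plus strand): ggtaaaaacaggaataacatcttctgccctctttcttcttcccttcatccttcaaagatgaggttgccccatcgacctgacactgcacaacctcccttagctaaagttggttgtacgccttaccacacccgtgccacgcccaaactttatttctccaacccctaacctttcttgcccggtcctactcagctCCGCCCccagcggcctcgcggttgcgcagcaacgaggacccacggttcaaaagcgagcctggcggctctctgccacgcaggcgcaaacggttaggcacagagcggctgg

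Most of the transcription machinery genes had an accessible gene end in both genotypes. Of the 107 members, 72 (67.3%, 57.9 to 75.4) were in both lists by their gene ends, 17 (15.9%, 10.2 to 24.0) were knockout-alone, 8 (7.48%, 3.84 to 14.1) control-alone and 10 (9.35%, 5.16 to 16.4) had no peak. Over all protein-coding genes the same percentages were 28.6, 9.81, 4.66 and 57.0. By gene ends the machinery genes thus lay above the background in the class of both lists and, narrowly, in the knockout-alone class. The interval of the control-alone share includes its background. With listed starts, and with intervals on 2 or more lines, both given below, the control-alone share lay above its background. The interval of the knockout-alone share includes its background with listed starts and lies above it with intervals on 2 or more lines. Among genes with any gene-end peak, the share in both lists was 74.2% (64.7 to 81.9) for the members and 66.4% (65.4 to 67.3) for all coding genes, and the interval of the members includes the background. Of the 25 members in 1 list alone, 68.0% (48.4 to 82.8) were in the knockout list, against 67.8% (66.2 to 69.4) of all coding genes in 1 list alone. At listed starts, described below, this share was 58.3% (38.8 to 75.5) of 24 members against 68.7% (66.8 to 70.5), with 14 knockout-alone and 10 control-alone members in place of 17 and 8, so how far the members tilt towards the knockout depends on the window. At all 72 members in both lists a knockout peak overlapped a control peak, as was general: it held at 6088 of the 6255 coding genes in both lists.

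**Figure D1:**
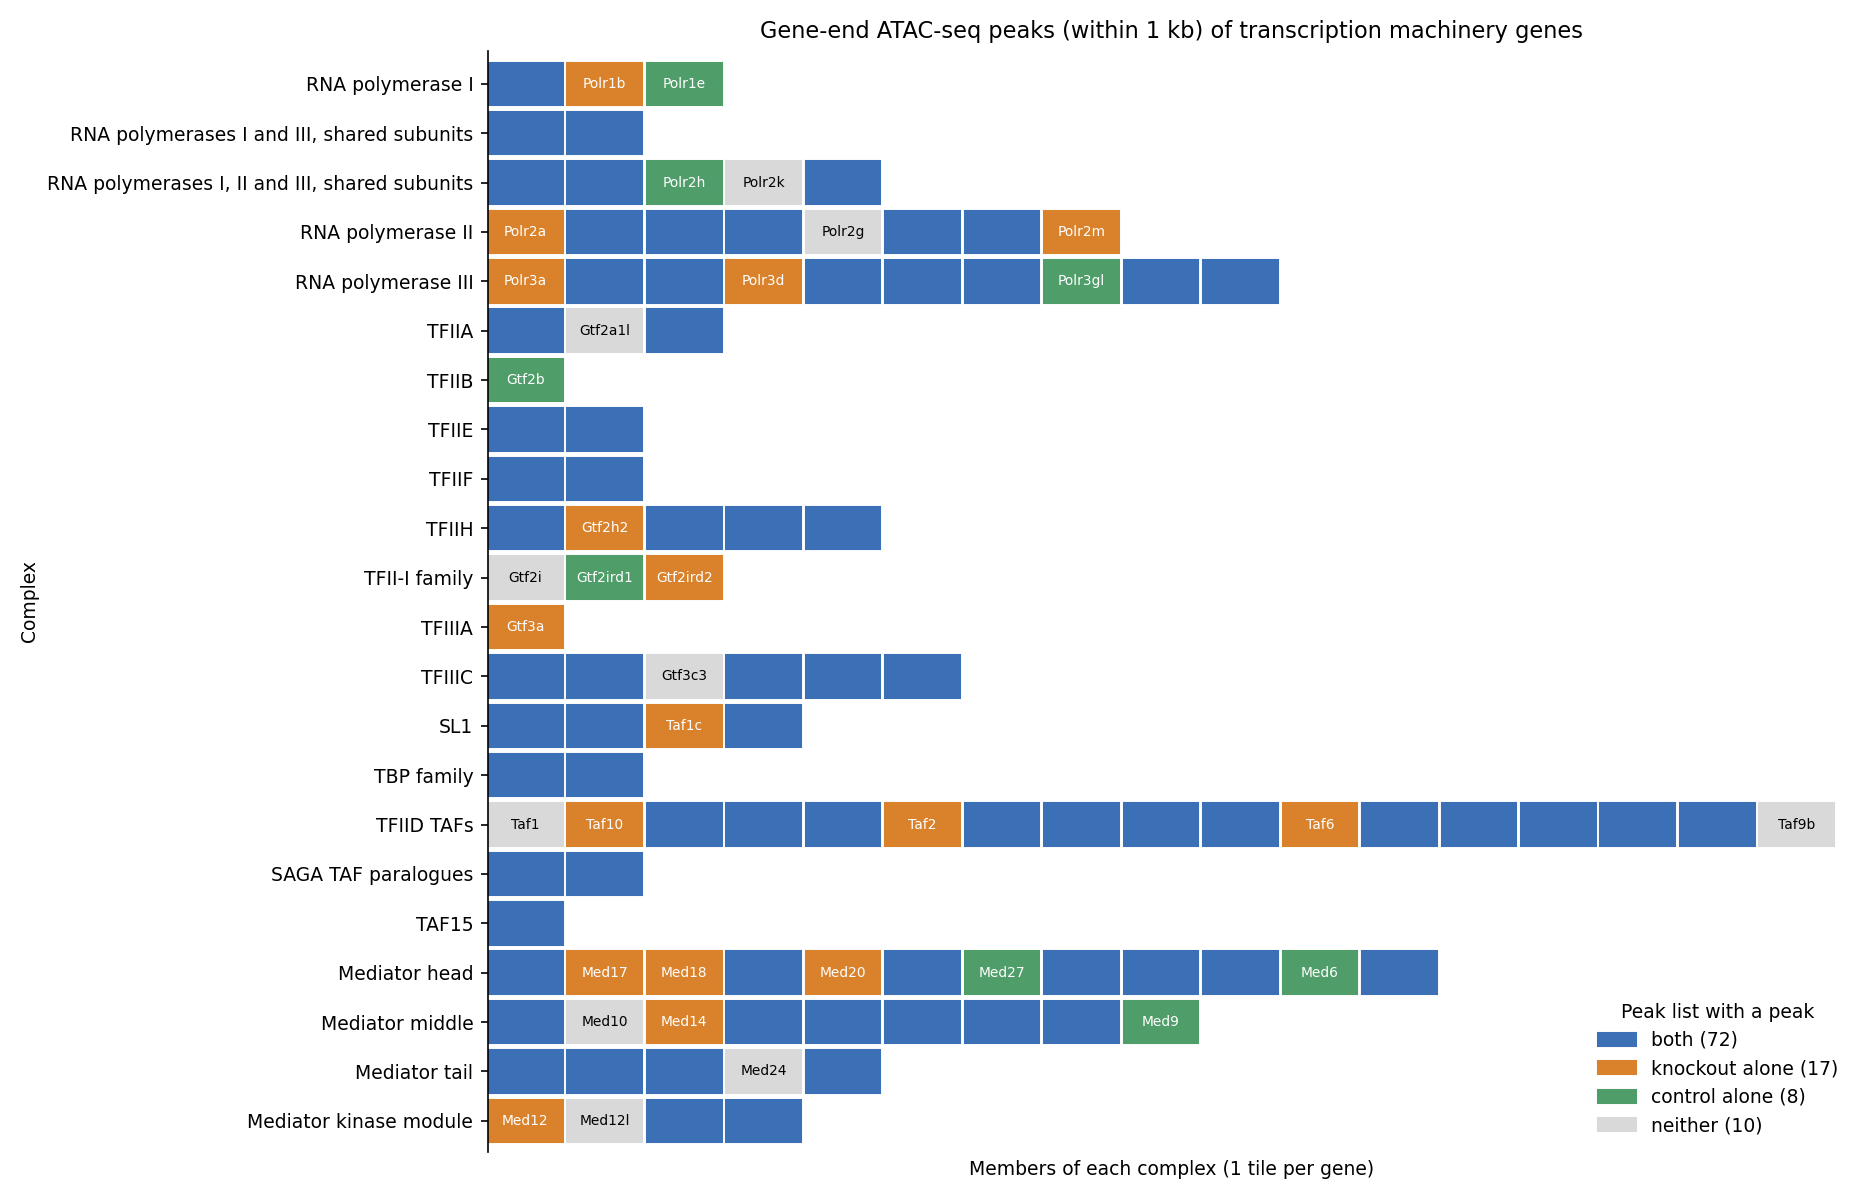
Each tile is 1 gene, in rows by complex, coloured by the peak list in which an interval lay within 1 kb of a gene end, with symbols on the tiles of genes outside the class of both lists. The 72 genes in both lists are spread over most complexes. By gene ends the rows of TFIIB and TFIIIA, of 1 gene each, and of the TFII-I family, of 3 genes, hold none of them.

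**Figure D2:**
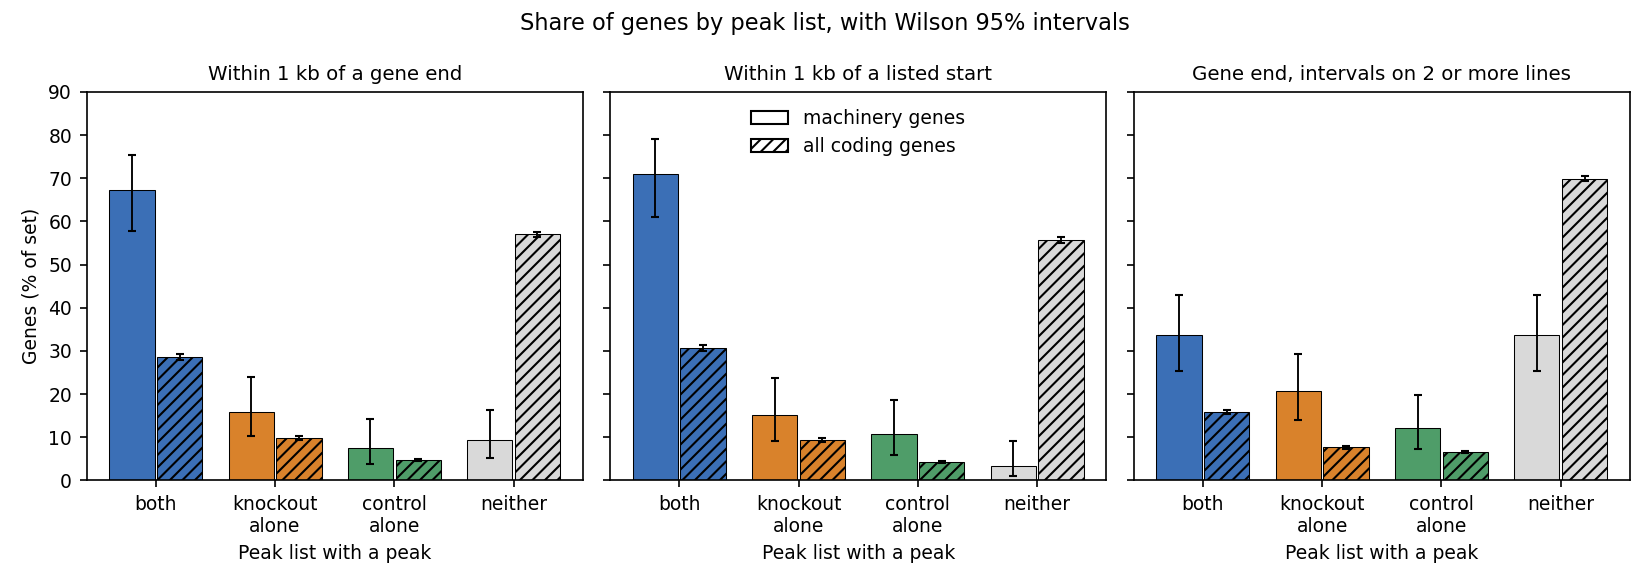
Bars give the percentage of the machinery genes (plain) and of all protein-coding genes (hatched) in each class, with Wilson 95% intervals, for gene ends, for listed gene starts and for intervals that stand on 2 or more lines of a list. The plain bar for both lists is at 67.3%, 71.0% and 33.6%, against 28.6%, 30.7% and 15.9% for all coding genes.

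Among the 28 RNA polymerase subunit genes, 18 had a peak in each list, 5 were knockout-alone, 3 control-alone and 2 had none. The catalytic core of RNA polymerase II was split. Polr2a, which encodes the largest subunit with the carboxy-terminal repeat tail, had a knockout-alone peak of 993 bp (chr11:69758102-69759094), at a site shared with the end of Slc35g3, and the nearest control interval lay 51839 bp from its ends. Polr2b, the gene of the second-largest subunit, had a peak in both lists, 767 bp wide (knockout) and 857 bp wide (control), at a site shared with the end of Noa1. Polr2c (740 bp knockout, 751 bp control), Polr2i (719 and 671 bp) and Polr2j (647 and 696 bp) differed little in width between the genotypes, and Polr2d was in both lists as well. Polr2m, whose product GDOWN1 binds the polymerase and blocks initiation factors, had 286 bp in the knockout alone (chr9:71485855-71486140). Polr2g, which encodes a subunit of the polymerase stalk, was in neither list, with the nearest intervals 3614 bp (knockout) and 3594 bp (control) from its ends.

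Subunits shared between the polymerases were mostly in both lists: Polr2e, Polr2f and Polr2l of those found in all polymerases, and Polr1c and Polr1d of those found in RNA polymerases I and III. Polr2l was wider in the knockout (1044 against 595 bp), while Polr2e (469 against 668 bp) and Polr2f (439 against 621 bp) were wider in the control. Polr2h, a subunit of all of them, was the exception towards the control, with a peak of 558 bp in the control alone (chr16:20717315-20717872) and no knockout interval within 24135 bp. This peak also lay at an end of Clcn2. Polr2k, the gene of another shared subunit, was in neither list. Of the RNA polymerase I genes, Polr1a, the largest subunit, was in both lists, Polr1b, the second-largest, had 440 bp in the knockout alone (chr2:129100878-129101317), and Polr1e had 252 bp in the control alone (chr4:45018771-45019022). Of the 10 RNA polymerase III genes, 7 were in both lists. The widest of these were Polr3k (1151 bp knockout, 801 bp control), Polr3f (933 and 904 bp) and Polr3e (927 and 1053 bp). The second-largest subunit gene, Polr3b, had 698 and 525 bp. Polr3d had a knockout-alone peak of 1013 bp (chr14:70442836-70443848), the widest of all members in 1 list alone. Polr3a, the largest subunit, had only 235 bp there (chr14:24486934-24487168). The paralogues Polr3g and Polr3gl encode alternative forms of 1 subunit, and Polr3g was in both lists (715 and 440 bp) while Polr3gl had 286 bp in the control alone (chr3:96594105-96594390).

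The general factors of RNA polymerase II, counted together with the 3 genes of the TFII-I family, had a peak in both lists at 10 of 16 genes. Of the 16, 2 were knockout-alone, 2 control-alone and 2 without a peak. None of the 10 was from the TFII-I family. Both TFIIE genes, both TFIIF genes and 4 of 5 TFIIH genes were in both lists. Gtf2h1, which encodes the p62 subunit of TFIIH, had the widest of them (1126 bp knockout, 1259 bp control), at a site shared with the end of Hps5. Gtf2e1 had 822 and 781 bp, and Gtf2e2 743 and 1081 bp. Gtf2b, the single gene of TFIIB, had a peak in the control alone, 402 bp wide (chr3:142765043-142765444), and the nearest knockout interval was 25672 bp away. Gtf2h2, which encodes the p44 subunit of TFIIH, had 656 bp in the knockout alone (chr13:100492132-100492787). Gtf2h3, another TFIIH gene, counted as both only through its far end: its start had a knockout peak of 736 bp (chr5:124578981-124579716), shared with the end of Eif2b1. The control interval of 810 bp (chr5:124598434-124599243) lay at the other end of the gene, beside an end of Tctn2, where a knockout interval of 476 bp overlapped it. The TFII-I family, named for a factor that binds initiator elements, had no gene in both lists by gene ends. Gtf2ird1 had 236 bp in the control alone (chr5:134456096-134456331), Gtf2ird2 had 320 bp in the knockout alone (chr5:134216901-134217220) and Gtf2i had none.

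Of the factors of RNA polymerases I and III, none was control-alone by gene ends, a class that held only 4.66% of all coding genes. With intervals on 2 or more lines Gtf3c5 and Taf1a were control-alone. Of the 6 TFIIIC genes, whose products bind transfer RNA genes, 5 were in both lists, from Gtf3c4 (1108 bp knockout, 749 bp control) and Gtf3c1, the largest subunit (919 and 1046 bp), to Gtf3c5 (511 and 480 bp). Gtf3c3 was in neither, and no interval of either list lay within 98257 bp of its ends. Gtf3a, the gene of TFIIIA, which binds 5S ribosomal RNA genes, had a knockout-alone peak of 706 bp (chr5:146948452-146949157). SL1 brings RNA polymerase I to ribosomal DNA, and 3 of its 4 TAF genes were in both lists. All 3 were wider in the control: Taf1a had 700 bp (knockout) and 999 bp (control), Taf1b 509 and 797 bp, and Taf1d 595 and 652 bp. The fourth, Taf1c, had 224 bp in the knockout alone (chr8:119605122-119605345).

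TBP, its relative TBPL1 and the TAFs outside SL1 had 17 of 22 genes in both lists (77.3%, 56.6 to 89.9), with 3 knockout-alone, none control-alone and 2 without a peak. With so few genes this interval overlaps those of the other groups, for example 63.3% (45.5 to 78.1) for Mediator, and with intervals on 2 or more lines 9 of the 22 were in both lists. Taf2, a TFIID scaffold gene, had a knockout-alone peak of 705 bp (chr15:55071763-55072467). Taf6, which encodes a histone-fold subunit, had 452 bp (chr5:138186828-138187279) and Taf10, a subunit shared with the SAGA coactivator, 478 bp (chr7:105744028-105744505), again without a control interval. The peaks of Taf6 and Taf10 also lay at the end of another gene, Cnpy4 and Tpp1. Among the TFIID genes in both lists, Taf3, whose product reads a histone methyl mark of active promoters, had 921 bp (knockout) and 606 bp (control). Taf5, a scaffold gene, had 1032 and 644 bp, and Taf8 510 and 895 bp. At Taf3 and Taf5 the control list held a second gene-end interval, of 335 and 375 bp, which the single knockout peak also overlapped. Their control widths thus cover only part of a split site and do not show a wider site in the knockout. Taf5l and Taf6l, paralogues that work in SAGA, and Taf15, an RNA-binding protein gene of the FET family, were in both lists.

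By gene ends the germ-cell paralogues Tbpl1, Taf4b, Taf7l and Taf7l2 were in both lists, beside their broadly expressed relatives. Gtf2a1l, a further germ-cell paralogue, and Taf9b, a paralogue of Taf9, were in neither, and of all members 67.3% were in both lists. Tbp had narrow peaks, with a knockout one of 324 bp (chr17:15499709-15500032) and a control one of 273 bp (chr17:15499752-15500024), and the latter was the narrowest control peak of any member in both lists. Tbpl1, whose loss is known to block spermatid development, had a knockout peak of 1109 bp (chr10:22730959-22732067) and a control peak of 1688 bp (chr10:22730803-22732490), the widest member peak of the control list, written on 6 lines of it, more than any other member interval. The TBP relative of germ cells thus had a wide site and TBP a narrow one in both genotypes. Taf4b had 806 bp (knockout) and 1030 bp (control), and its relative Taf4 had 989 bp (chr2:179976295-179977283) and 560 bp (chr2:179976693-179977252). Taf7l, on the X chromosome, had a knockout peak of 808 bp (chrX:134474957-134475764) and a control peak of 1300 bp (chrX:134475072-134476371). Its relative Taf7 had 662 and 365 bp, and Taf7l2, a further gene of this family, 847 bp (chr10:116113588-116114434) and 472 bp (chr10:116113956-116114427). Taf9 had 938 bp (chr13:100650663-100651600) and 1298 bp (chr13:100650631-100651928), both shared with the ends of Ak6 and Rad17, while its paralogue Taf9b, on X, was in neither list. In width, Tbpl1, Taf4b, Taf7l and Taf9 were wider in the control and Tbp, Taf4, Taf7 and Taf7l2 wider in the knockout.

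Gtf2a1, the TFIIA large-subunit gene of most tissues, had a knockout peak of 943 bp (chr12:91589695-91590637) and a control peak of 583 bp (chr12:91590035-91590617). Gtf2a1l, its germ-cell paralogue, had no interval within 1 kb of either annotated end. The gene as annotated, chr17:88665493-88715157, begins upstream of the start listed in the RefSeq promoter table, and around that start the control list had an interval of 721 bp (chr17:88668147-88668867) that covered it, with none in the knockout. Further intervals lay inside this gene away from its ends, 3 in each list, of which the control count includes the one at the listed start.

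Mediator had 19 of 30 genes in both lists, 5 knockout-alone, 3 control-alone and 3 without a peak. The head module, which contacts the polymerase and is counted here with Med27, Med28, Med29 and Med30, is the largest as grouped here, with 12 of the 30 genes. It held 5 of the 8 Mediator genes in 1 list alone. Over all coding genes 9.81% were knockout-alone and 4.66% control-alone. In the head 58.3% (32.0 to 80.7) were in both lists, an interval that overlaps those of the other modules. Med17, the scaffold gene of the head, had 650 bp (chr9:15279474-15280123) in the knockout alone. Med18 and Med20, whose products form a pair at the tip of the head, had 565 bp (chr4:132463603-132464167) and 744 bp (chr17:47611167-47611910) in the knockout alone, and the Med20 peak also lay at the ends of Bysl and Gm20517. Med6 had 350 bp (chr12:81594918-81595267) and Med27 442 bp (chr2:29346684-29347125) in the control alone. Med14, the backbone of the complex, counted here with the middle module, had 516 bp in the knockout alone (chrX:12761767-12762282), Med9 334 bp in the control alone (chr11:59948104-59948437), and Med10 had none. Med1, the subunit that binds nuclear receptors, was in both lists (562 bp knockout, 973 bp control), as were Med26, a dock for elongation factors (798 and 1084 bp), and Med21 (855 and 844 bp). In the tail, which meets activators, Med15 (512 and 400 bp), Med16 (746 and 414 bp), Med23 (595 and 672 bp) and Med25 (444 and 617 bp) were in both lists. Med24 was in neither, with the nearest intervals 21503 bp (knockout) and 21853 bp (control) from its ends. The kinase module had Med13 and Med13l in both lists, Med12 in the knockout alone with 374 bp (chrX:101273905-101274278) and its paralogue Med12l in neither.

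The peaks of members in 1 list alone were narrower than those of members in both. Knockout peaks had a median width of 516 bp at the 17 members in the knockout alone (224 to 1013) and 727 bp at the 72 members in both lists (193 to 1353), and these ranges overlap. Control peaks had a median of 342 bp at the 8 members in the control alone (236 to 558) and 704 bp at those in both (273 to 1688). Over all coding genes the medians were 421 and 758 bp in the knockout and 436 and 714 bp in the control, so narrower peaks at genes in 1 list alone were general. An interval can stand on several lines of a list, and the widest peak of a member stood on 2 or more lines at 62.9% (52.5 to 72.2) of members with a knockout peak and 61.2% (50.3 to 71.2) of those with a control peak. With only such intervals kept, 36 members (33.6%) were in both lists, 22 (20.6%) were knockout-alone, 13 (12.1%) control-alone and 36 without a peak, against 15.9%, 7.71%, 6.56% and 69.9% of all coding genes. Of the 25 members in 1 list alone, 9 stayed in their class there, among them Polr2a, Gtf2h2, Gtf3a, Med17, Med18 and Med20 in the knockout alone and Polr2h in the control alone. Gtf2b and the other control-alone members then had no interval, and nor did Tbp, a member in both lists.

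Where a member was in both lists, peaks were wider in the knockout at some genes and in the control at others. The log2 ratio of knockout to control width, taken between the widest gene-end peak of each list, had a median of -0.08 with quartiles of -0.50 and 0.40, and its median over all 6255 coding genes in both lists was 0.04 (-0.29 and 0.40). At 32 members the knockout peak was wider, at 39 the control peak, and at Taf15 both intervals were identical (1170 bp, chr11:83472615-83473784). By group, the median ratio was -0.03 for the polymerase subunits, -0.03 for the RNA polymerase II factors, 0.09 for TFIIIC, -0.51 for SL1, 0.00 for the TBP family and other TAFs and -0.14 for Mediator. SL1 thus lay lowest, over 3 genes. The widths lay within 1.5-fold of each other at 59.7% (48.2 to 70.3) of the members and at 71.4% (70.3 to 72.5) of all coding genes in both lists. At 4 members, Polr1a, Gtf2h3, Gtf2h4 and Taf6l, the widest peaks of the lists did not overlap, so that their ratio compares different sites.

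The largest ratios belonged to Mediator and polymerase genes. Med13l had 861 bp (knockout) and 313 bp (control), a log2 ratio of 1.46. Med29, whose peak is shared with the elongation factor gene Paf1, had 1092 and 442 bp (1.30). Polr3c had 835 and 371 bp (1.17), Polr1c 844 and 407 bp (1.05), and Med4 822 and 447 bp (0.88). The peaks of Polr3c and Polr1c also lay at ends of Rnf115 and Yipf3. At the other end stood Taf11, a histone-fold TAF gene, with 301 bp (knockout) and 833 bp (control), a log2 ratio of -1.47. Its peaks also lay at an end of Anks1. Med11 had 193 and 441 bp (-1.19), Med28 428 and 870 bp (-1.02), Polr2d 338 and 670 bp (-0.99), and Gtf2f1, the gene of the large TFIIF subunit, 630 and 1240 bp (-0.98). Mediator genes thus stood at both extremes. The 3 widest member peaks of the knockout list lay at Taf5l (1353 bp), Taf15 (1170 bp) and Med22 (1169 bp), and those of the control list at Tbpl1 (1688 bp), Med31 (1307 bp) and, with equal widths, Taf5l and Taf7l (1300 bp). The peaks of Taf5l and Med22 also lay at ends of Urb2 and Rpl7a, and that of Med31 at the end of another coding gene.

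**Figure D3:**
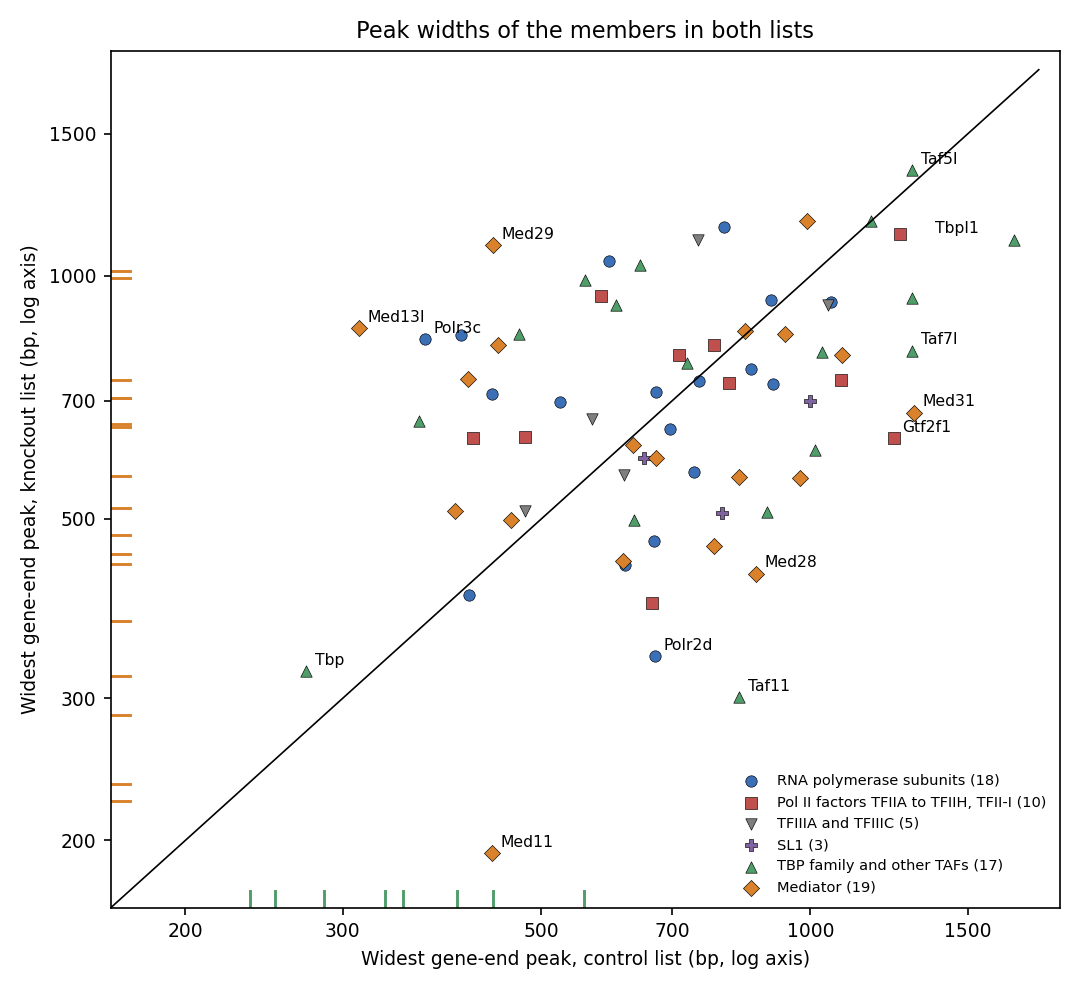
Each point is 1 of the 72 members in both lists, at the width of its widest gene-end peak in the control list (horizontal) and the knockout list (vertical), both on log axes, with symbols by group and the line of equal widths. Ticks on the left edge are the 17 members in the knockout alone and ticks on the lower edge the 8 in the control alone, and points lie on both sides of the line in every group except SL1, where all 3 are below it.

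Measured from the gene start, the peaks sat where promoters lie. The RefSeq promoter table lists a strand and at least 1 start for 93 of the 107 members. Among those without an entry were Polr2d, Polr3a, Polr3d, Taf2, Taf4b, Taf7 and Med24. Of the 93, 66 (71.0%, 61.1 to 79.2) had an interval within 1 kb of a listed start in both lists, 14 (15.1%, 9.18 to 23.7) were knockout-alone, 10 (10.8%, 5.95 to 18.7) control-alone and 3 (3.23%, 1.10 to 9.06) had none. The background was 30.7%, 9.40%, 4.28% and 55.6% of 17492 coding genes. The 3 members with none were Gtf3c3, Taf9b and Med12l. An interval covered the start itself at 74 of 80 members in the knockout (92.5%, 84.6 to 96.5) and 67 of 76 in the control (88.2%, 79.0 to 93.6), against 88.7% and 86.9% of all coding genes with a peak there. Where it did, the peak reached a median of 260 bp upstream and 352 bp downstream in the knockout and 315 bp each way in the control.

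At 6 members the class at the listed start differed from that at the gene ends. Med10 and Gtf2i, with no gene-end peak, had intervals at a listed start inside the annotated gene in both lists. For Med10 these were 416 bp (chr13:69809690-69810105) and 319 bp in the knockout and 903 bp (chr13:69809721-69810623) in the control. For Gtf2i the wider knockout interval was 1025 bp (chr5:134313514-134314538) and the control one 840 bp (chr5:134313497-134314336), both starting downstream of the listed start. Gtf2ird2 moved from the knockout alone to both lists, with 666 bp (chr5:134184135-134184800) and 892 bp (chr5:134183954-134184845). Gtf2h3 moved from both lists to the knockout alone. Gtf2a1l and Taf1 moved from neither list to the control alone, Taf1 with 306 bp (chrX:101532490-101532795). At Med10, Gtf2i, Gtf2a1l and Taf1 the absence of a peak thus held for the annotated gene ends and not for the listed starts.

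Some peaks lay beside the start and not over it. Taf7l is an example in both genotypes: its knockout peak began 726 bp and its control peak 119 bp downstream of the listed start. Med13 had its peak upstream in both, ending 313 bp (knockout) and 334 bp (control) before the start. At Taf4 and Taf7l2 the knockout peak covered the start, whereas the control peak ended 47 and 39 bp before it. Med1, the other way round, was covered in the control and had a knockout peak that ended 66 bp before the start. Gene-end intervals over 1 kb from any listed start numbered 11, at 8 members, and those of Gtf2h3, Gtf2h4, Gtf3c6 and Taf6l lay at the end of a neighbouring gene. A peak shared with the end of another coding gene was found at 32 of 89 members with a knockout peak (36.0%, 26.8 to 46.3) and 30 of 80 with a control peak (37.5%, 27.7 to 48.5), against 31.0% and 32.3% of all coding genes with a peak, and such a peak cannot be assigned to either gene.

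**Figure D4:**
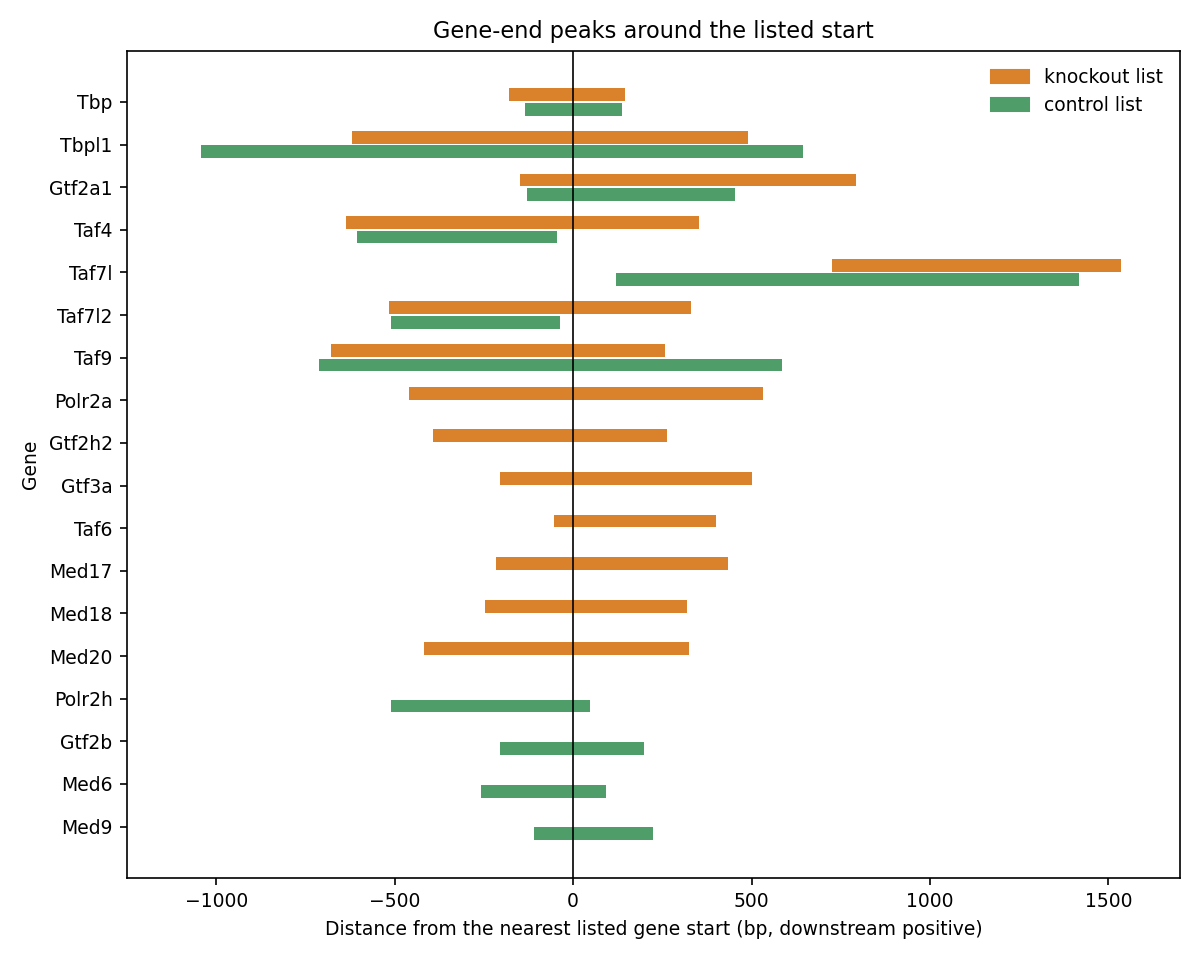
Bars show gene-end intervals of the knockout list (orange) and control list (green) around the nearest listed start of 18 members, in bp with downstream positive. Most bars cross the line at 0, those of Taf7l lie downstream of it, and the 7 knockout-alone members from Polr2a to Med20 have no control bar.

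The X chromosome, silenced in pachytene spermatocytes, carries 5 members: Taf1, Taf7l, Taf9b, Med12 and Med14. By gene ends Taf7l was in both lists, Med12 and Med14 in the knockout alone, and Taf1 and Taf9b in neither. Over all X-linked coding genes 10.4% (8.59 to 12.4) had a gene-end peak in either list. By listed starts 4 of these 5 members had an interval in a list, against 11.6% (9.61 to 14.0) of 817 X-linked genes. The intervals of Med12 and Med14 stood on 1 line of the list each, and that of Taf7l on 3 lines of both lists. With only intervals on 2 or more lines kept, Taf7l was the one X-linked member with a gene-end peak.

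The promoter windows of the members were rich in CpG, and the ETS core was the motif that set them apart most in share from other coding genes. The 93 members have 109 windows, and windows of 1 gene can overlap. CCGGAAG was found in 37 of them (33.9%, 25.7 to 43.2), against 11.6% of 21263 windows of all coding genes and 22.5% (21.5 to 23.5) of windows of coding genes in both lists. AAGATGG was in 11.9% (7.10 to 19.3) of member windows and 6.24% of all, and GGGCGG in 62.4% (53.0 to 70.9) and 46.2%, with 68.3% in windows of coding genes in both lists. TATAAA was in 11.9% (7.10 to 19.3) of member windows and 12.6% of all, with 5.80% in windows of coding genes in both lists and 15.1% in those of members in both lists. It began 35 to 25 bases before the start on the gene's own strand, where a TATA box acts, in the windows of Polr2a and Taf13 alone, 1.83% (0.505 to 6.44) of member windows, in 489 of the 21263 windows of all coding genes and in 34 of the 6410 of coding genes in both lists. CCAAT was in 31.2% of member windows against 38.2%, TGACGTCA in 3.67% against 2.23%, AACTGCC in 3.67% against 3.94%, GCGGGAA in 8.26% against 5.95%, and the NRF1 motif in 0 of 109 against 1.33%. The median CpG ratio, observed over expected, was 0.820 in member windows, 0.567 in all and 0.827 in those of coding genes in both lists. A match is a description of the letters and not a bound site. In the windows printed above, Polr2a shows GC boxes, a GCGGGAA match that overlaps one of them and the TATAAA, Tbpl1 an ETS core just after the start, and Tbp a single GC box on the opposite strand. Gtf2b shows a CCAAT box and, just after the start, AAGATGG, Polr2h a GC box at the start and Gtf2a1 an ETS core before it.

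Partner genes that the symbol rule leaves out were mostly in both lists as well. Of 54 such genes, 41 (75.9%, 63.1 to 85.4) were in both lists by their ends, 4 were knockout-alone, 2 control-alone and 7 without a peak, beside the 28.6%, 9.81%, 4.66% and 57.0% of all coding genes. The knockout-alone genes were Ccnh (585 bp), the cyclin of the TFIIH kinase, Snapc5 (437 bp) and Snapc4 (304 bp) of the complex that drives small nuclear RNA genes, and Nelfb (223 bp) of the pausing factor NELF. Nelfa (827 bp), another NELF subunit, and Ercc3 (334 bp), the TFIIH translocase gene, were in the control alone. In neither list were Ubtf, the RNA polymerase I factor, Polrmt, the mitochondrial RNA polymerase, Mnat1, Dr1, Snapc3, Ell3 and Tbpl2, the oocyte TBP relative.

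**Figure D5:**
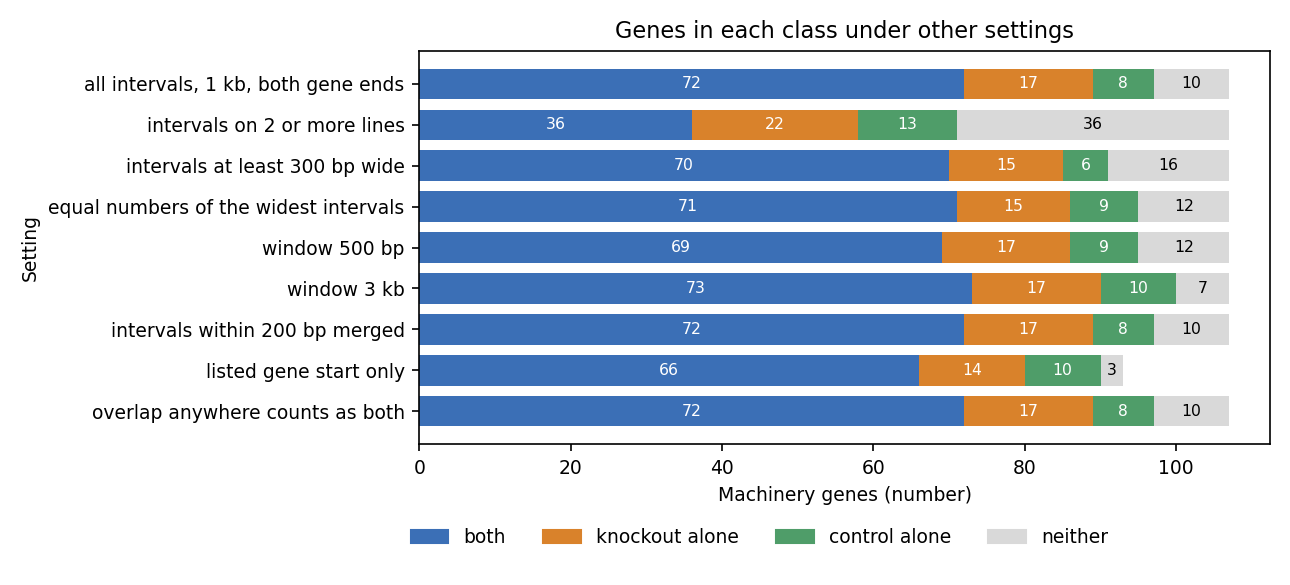
Each bar divides the machinery genes by class under 1 setting, with the number of genes written in each part. The part for both lists lies between 66 and 73 genes in all settings shown except intervals on 2 or more lines, where it is 36, and the bar for listed starts covers 93 genes.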

How the data were processed

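Per the labels, nuclei of pachytene spermatocytes were cut with Tn5. Tools named in the submitters' processing notes are MACS2 2.2.4, Picard 2.20.7, Bowtie2 2.3.4.3 and cutadapt 2.5, with build mm10. Peak threshold, read shift, filters and any pooling of replicates are not stated there. The authors deposited 3-column interval lists, 1 per genotype analysed here. No separate list for the second library of each genotype was analysed, and whether its reads entered the list used is unknown. Repeated lines (29656 and 24167 lines in all) were counted once, and positions are 1-based. Members, complexes and gene lists were chosen with earlier results of these data known. Genes came from RefSeq GRCm38.p6, on chromosomes 1 to 19, X and Y, and gene starts and promoters from its promoter table. Named genes were those in 1 list alone, germ-cell paralogues and relatives, the 3 widest peaks of each list, the 5 highest and 5 lowest width ratios, X-linked genes, Polr2a, and genes whose nearest interval lay within 100 bp of the window's limit. The last was Gtf2ird2, whose knockout interval lay 926 bp from a gene end. Some other genes are named by class or, with their intervals, after their values were seen, and the rest are counted without a name. Python 3.11.15, numpy 2.4.6 and matplotlib 3.10.9 were used. Assignment to gene ends was tested on simulated intervals. In all, 8 alternatives were tried.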

Additional observations from a re-analysis of the deposited data

How the results depend on the processing

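No paired analysis was possible because each genotype had 1 list and no test was run, and for the same reason no replicate could be left out. Of the 8 alternatives, merging intervals within 200 bp and counting an overlap anywhere as both lists changed no member's class. Keeping intervals on 2 or more lines changed the class of 52 of 107 members, with 36 in both lists, 13 control-alone and 36 without a peak, and this follows from its construction, since it drops intervals. With intervals at least 300 bp wide 16 members were in neither list, and with listed starts 3 of 93. The number of knockout-alone members ranged from 14 to 22. The median log2 width ratio ranged from -0.13 to 0.01, so its sign depends on the setting. No member turned from one genotype alone to the other. Wherever they had a value, 9 of the 25 members in 1 list kept their class under all 8 alternatives: Polr2a, Polr3d, Gtf2h2, Gtf3a, Taf6, Med17, Med18 and Med20 in the knockout alone and Polr2h in the control alone. Of the 72 members in both lists, 33 did so. With equal numbers of the widest intervals, 15 members were knockout-alone and 9 control-alone. With a 500 bp window Tbpl1 and Taf7l were in the control alone, since their knockout peaks lay 599 and 741 bp from the nearest annotated end. The knockout peak of Tbpl1 covered its listed start. The depth behind each list is unknown, so a missing peak does not show a closed site.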

Other observations

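Among member promoters, GCGGGAA, a core of E2F sites, was found at 7 of the 22 members in 1 list alone that have a listed start (31.8%, 16.4 to 52.7): Polr2a, Taf10, Med17, Med14 and Gtf2ird2 in the knockout alone and Med6 and Med9 in the control alone. It was found at 2 of 64 members in both lists (3.12%, 0.861 to 10.7), Gtf2h1 and Gtf2h3. The motif is read at the listed start and the class at the gene ends: by listed starts Gtf2ird2 was in both lists and Gtf2h3 was knockout-alone. Over all coding genes the order was not repeated, with 8.64% (7.59 to 9.82) of genes in 1 list alone and 11.1% (10.2 to 11.9) of those in both. This motif was singled out after its values were seen, among 9 searched.

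The interval of Taf15 had the same start and end in both lists. This held for 7 intervals of the whole lists and for no other member. Away from their ends, 20 members (18.7%, 12.4 to 27.1) held a knockout interval inside the gene and 13 (12.1%, 7.24 to 19.7) a control interval, against 20.7% and 15.6% of all coding genes. Taf4 had 5 such intervals in the knockout and 2 in the control.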
